A study of Mus musculus with 16 samples.

Results

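The loss of Il13ra1 was examined in the esophagus of mice labelled as vehicle-treated, by comparing 4 libraries from Il13ra1-/- mice (KO) with 4 from wild-type mice (WT). The genes described are those with a deposited value of at least 5 in at least 4 of these 8 libraries. Of 41411 genes in the deposited table, 15289 met that rule, and 13776 of them were protein coding. A further 18240 genes were at 0 in all 8 libraries, and 7882 were above 0 in at least 1 library but did not meet the rule. Of the 15289 genes, 13033 reached 5 in all 8 libraries, 22 reached it only in KO libraries and 5 only in WT libraries.

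The whole series held 16 libraries of RNA from mouse esophagus, 4 for each combination of genotype (WT or Il13ra1-/-) and treatment (vehicle or OXA, the skin-sensitizing hapten oxazolone, used to produce a model of eosinophilic esophagitis). All mice were of the strain C57BL/6 per the labels, which name neither a substrain, a supplier, a breeding scheme, an age nor the part of Il13ra1 that was deleted. RNA was measured by CEL-Seq, which counts tags near the 3' ends of transcripts. Nothing in the labels says that libraries of 1 group came from separate animals, so p-values measure only the spread between these libraries.

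Il13ra1 encodes the receptor chain that binds IL-13 and pairs with Il4ra. The pair, called the type II receptor, signals through JAK kinases and STAT6 in answer to both IL-4 and IL-13. In the esophagus this receptor is carried by the squamous epithelium, where IL-13 is known for lowering barrier proteins and raising eotaxins during allergic inflammation. The vehicle libraries are those labelled as not given OXA, so the comparison sets KO beside WT without that treatment.

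The WT vehicle libraries held 7.64 ± 1.70 M reads, recovered from the table (SD, n = 4, range 5.61 to 9.55), and the KO vehicle libraries 12.9 ± 3.64 M (range 7.91 to 16.5; exact permutation test, two-sided, p = 0.0857, smallest possible 0.0286). The share of reads from mitochondrially encoded mRNAs was 7.25% ± 1.92 in WT and 9.92% ± 0.454 in KO (exact permutation p = 0.0286). Krt4, the main suprabasal keratin of the esophagus, took 9.68% ± 1.63 of reads in WT and 9.64% ± 0.925 in KO (exact permutation p = 0.943), and all 11 squamous epithelial markers were measured. Libraries are numbered 1 to 4 within a group. On the first principal component of the 8 libraries (29.8% of the variance) WT vehicle 4, the shallowest, stood apart, and on the second (16.2%) WT vehicle 3 did. Transcripts of B and plasma cells were high in KO vehicle 2 alone: Jchain was at 986.4 there and at 28.27 to 72.28 in the other KO libraries.

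Between KO and WT under vehicle, 10 of the 15289 genes passed the test (0.0654%; limma, adjusted p under 0.05 over 16748 genes tested). The 6 that rose in KO (0.0392%) included Mmrn1, Cyp2ab1, Rnf167, Dynlt1a and Cd59a. The 4 that fell (0.0262%) were Acsm3, the predicted gene Gm15446, Il13ra1 and Hspa1a. In all 10 the KO and WT libraries did not overlap, as in 5.42% of the 15289 genes (2.55% higher and 2.86% lower in KO). The median log2 fold change over all of them was 0.01 and its SD 0.51. At an unadjusted p under 0.05 there were 1388 genes (9.08%), 775 genes higher in KO (5.07%) and 613 lower (4.01%). On the same recovered reads, edgeR's quasi-likelihood test called 7 genes and DESeq2 called 41.

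Mmrn1 and Cyp2ab1 passed with any 1 of the 16 libraries left out (largest limma adjusted p 0.0266 for both). Both genes were counted through their high KO vehicle libraries, so that they had to differ in order to be counted. Leaving out a library does not remove that limit. In a fit to the 8 vehicle libraries alone Mmrn1 passed (0.0279) and Cyp2ab1 did not (0.168). The calls of 7 genes, Il13ra1, Acsm3, Gm15446, Hspa1a, Rnf167, Dynlt1a and Cd59a, were lost with some libraries left out. All 7 were lost without WT vehicle 1 (adjusted p 0.0984 to 0.138), WT vehicle 3 (0.0683 to 0.186), KO vehicle 1 (0.0601 to 0.158) or WT OXA 2 (0.0513 to 0.0773), while their log2 fold changes kept their sign. Over all alternatives the fold change ran from -2.09 to -1.72 for Il13ra1 and from 1.14 to 1.25 for Rnf167, and leaving out an OXA library left the vehicle fold changes as they were. Without WT vehicle 2 only Dynlt1a of the 7 passed (0.0497), without KO vehicle 2 only Il13ra1 (0.0484), without KO vehicle 3 only Acsm3 (0.0193) and without KO vehicle 4 only Gm15446 (0.0117). Acsm3 and Rnf167 were also lost without WT vehicle 4 (0.105 and 0.0986) or KO OXA 3 (0.0527 for both), and Hspa1a without KO OXA 1 (0.0568) or KO OXA 4 (0.0587). Cd59a, Acsm3 and Rnf167 were lost without WT OXA 4 (0.0506, 0.0506 and 0.0575), and without WT OXA 1 the genes lost were Gm15446, Cd59a, Acsm3, Rnf167 and Hspa1a (0.0554 to 0.0666).

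**Figure D1:**
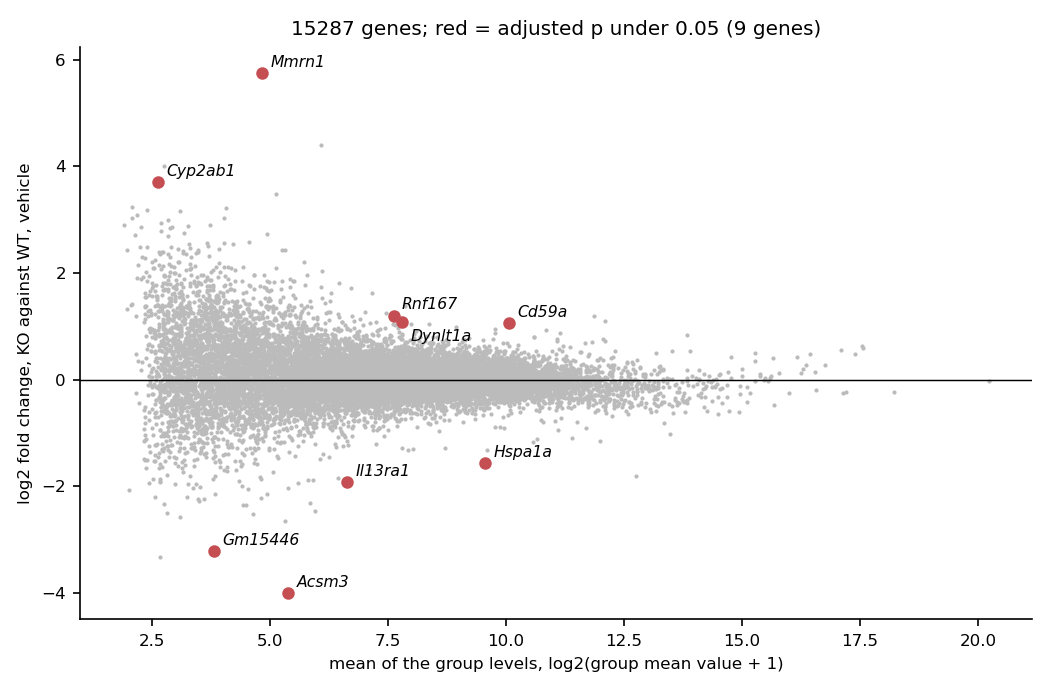
Log2 fold change of KO against WT under vehicle (vertical axis) against the mean level of the groups (horizontal axis, log2 of the group mean plus 1), with 1 point a gene. The 9 genes that passed and are described in the text are red and named, and the cloud of the others widens toward low levels on both sides of 0.

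Il13ra1 itself lies on the X chromosome (GRCm38, 36112110 to 36171259). Its value was 207, 226, 197 and 134 in the 4 WT vehicle libraries and 31.2, 64.7, 48.7 and 55.8 in the KO libraries. Every KO library was lower than every WT library, and the gene fell by 1.93 ± 0.32 on the log2 scale (SE; limma adjusted p = 0.0267). The KO libraries still held 205 reads of it, against 464 in the WT libraries, which were shallower on average. The mean value, which allows for depth, was 50.1 in KO and 190.7 in WT. Since the deleted part is not given, tags at the 3' end may lie outside it and do not measure working receptor. Under OXA, in libraries that none of these share, Il13ra1 was at 584, 673, 752 and 874 in WT and at 44.0, 174, 68.1 and 110 in KO (log2 fold change -3.02, limma adjusted p = 1.1e-06). The test of the difference between the effects under OXA and under vehicle did not pass (-1.09, adjusted p = 0.11).

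The receptor and signalling genes of IL-4 and IL-13 were otherwise near 0 in fold change. Of 15 measured genes in that list, Il13ra1 was the only one to pass or to reach an unadjusted p under 0.05, 4 were higher and 11 lower, and the median was -0.06. Il4ra, the chain shared by both IL-4 receptors, was at 69.8 ± 21.2 in WT and 65.1 ± 13.2 in KO (SD, n = 4; log2 fold change -0.06 ± 0.24 SE). Stat6, the transcription factor downstream, was at 1154 ± 79.4 in WT and 956 ± 125 in KO (-0.28 ± 0.14, limma adjusted p = 0.56). Il13ra2, the decoy receptor for IL-13, was above 0 in 1 vehicle library only and did not meet the rule. Il2rg, the partner chain of the type I receptor, was listed at 0 in all 16 libraries.

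Genes around Il13ra1 on the X chromosome were not called. Among 25 other measured genes within 5 Mb, log2 fold changes ran from -1.04 to 1.24 with a median of 0.08, and the smallest adjusted p was 0.379. Pgrmc1, a heme-binding membrane protein, was the 1 gene of these with an unadjusted p under 0.05: it was at 967, 909, 874 and 833 in WT and 615, 540.2, 577 and 835 in KO (log2 fold change -0.50 ± 0.15). KO vehicle 4 lay within the WT range and the other KO libraries below it. Lonrf3, which did not meet the rule, had an unadjusted p of 0.0427 in the limma fit and was at or below 11.2 in every vehicle library.

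Mmrn1, which encodes multimerin 1, a protein of platelets and endothelium, lies on chromosome 6 (GRCm38, 60924976 to 60989378). It was at 0, 15.45, 0 and 2.23 in WT and at 159, 198, 120.2 and 115 in KO. Even the highest WT library was far under the lowest KO library (log2 fold change 5.75 ± 0.78, limma adjusted p = 0.00284). Of the WT libraries only the highest reached the minimum value of the rule. Mmrn1 was therefore counted through its KO libraries and had to differ in order to be counted.

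The same held under OXA, where Mmrn1 was at 0 in all 4 WT libraries. It had 330 reads in the KO OXA libraries, at least 222-fold higher than a limit of 3 reads over the WT group allows. The next gene tested beyond Mmrn1 on one side, Ccser1, had no call (log2 fold change 0.13, adjusted p = 0.948). A deletion that removes Mmrn1 is known in one C57BL/6 substrain. Since the labels do not name the substrain of either genotype, loss of Il13ra1 and a difference in the origin of the mice cannot be told apart for this gene. The 16 measured genes of a list known to vary between C57BL/6 substrains, Mmrn1 among them, had a median of 0.08, and most did not pass. Gbp2b, an interferon-induced GTPase of that list, was at 31.7, 12.4, 14.6 and 20.1 in WT and 2.92, 6.04, 1.52 and 8.21 in KO, groups that did not overlap (log2 fold change -1.95 ± 0.45; it did not pass in limma, adjusted p = 0.213, and passed in DESeq2, 0.0343). Under OXA the fold change of Gbp2b was 0.60 (limma adjusted p = 0.351), and the difference between treatments passed (2.55, adjusted p = 0.0087). Nnt, another gene of the substrain list, was listed at 0 in all 16 libraries under both of its overlapping identifiers.

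Rnf167, Dynlt1a, Cd59a and Gm15446 showed the same direction under both treatments. Rnf167, an E3 ubiquitin ligase of the endosomal membrane, was at 140.4, 117, 129.5 and 127 in WT vehicle and 277, 335, 268 and 309 in KO vehicle (log2 fold change 1.20 ± 0.22, limma adjusted p = 0.0443). Its fold change under OXA was 1.36 (adjusted p = 0.0001). Cd59a, a membrane inhibitor of the complement attack complex, was at 581, 601, 761 and 1054 in WT and 1308, 1591, 1429 and 1773 in KO (1.06 ± 0.19, adjusted p = 0.0416; under OXA 0.97, adjusted p = 0.00067). For both genes the lowest KO library was above the highest WT library.

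Dynlt1a, a light chain of the dynein motor, was at 123, 129.8, 159 and 207 in WT and 284, 368, 291 and 346 in KO (log2 fold change 1.08 ± 0.18, limma adjusted p = 0.0266; under OXA 1.21). It has near-identical copies on chromosome 17, and reads may be split among them: the copy Dynlt1f had a fold change of the opposite sign (-0.70 ± 0.25, adjusted p = 0.441). Gm15446, a predicted gene of no known function, was at 56.45, 49.45, 52.9 and 11.1 in WT and 2.92, 1.73, 1.52 and 8.21 in KO (-3.22 ± 0.55, adjusted p = 0.0267; under OXA -3.05). Its WT vehicle 4 value lay close to the highest KO value.

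Of the 10 genes that passed under vehicle, 7 also passed under OXA in the same direction, where 29.6% of the 15289 genes passed. They included Mmrn1, Rnf167, Dynlt1a, Cd59a, Gm15446 and Il13ra1, and for each of the 7 the test of the difference between treatments did not pass. The other 3, Cyp2ab1, Acsm3 and Hspa1a, did not pass under OXA, and for each the difference between treatments passed (as for 19.1% of the 15289 genes).

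**Figure D2:**
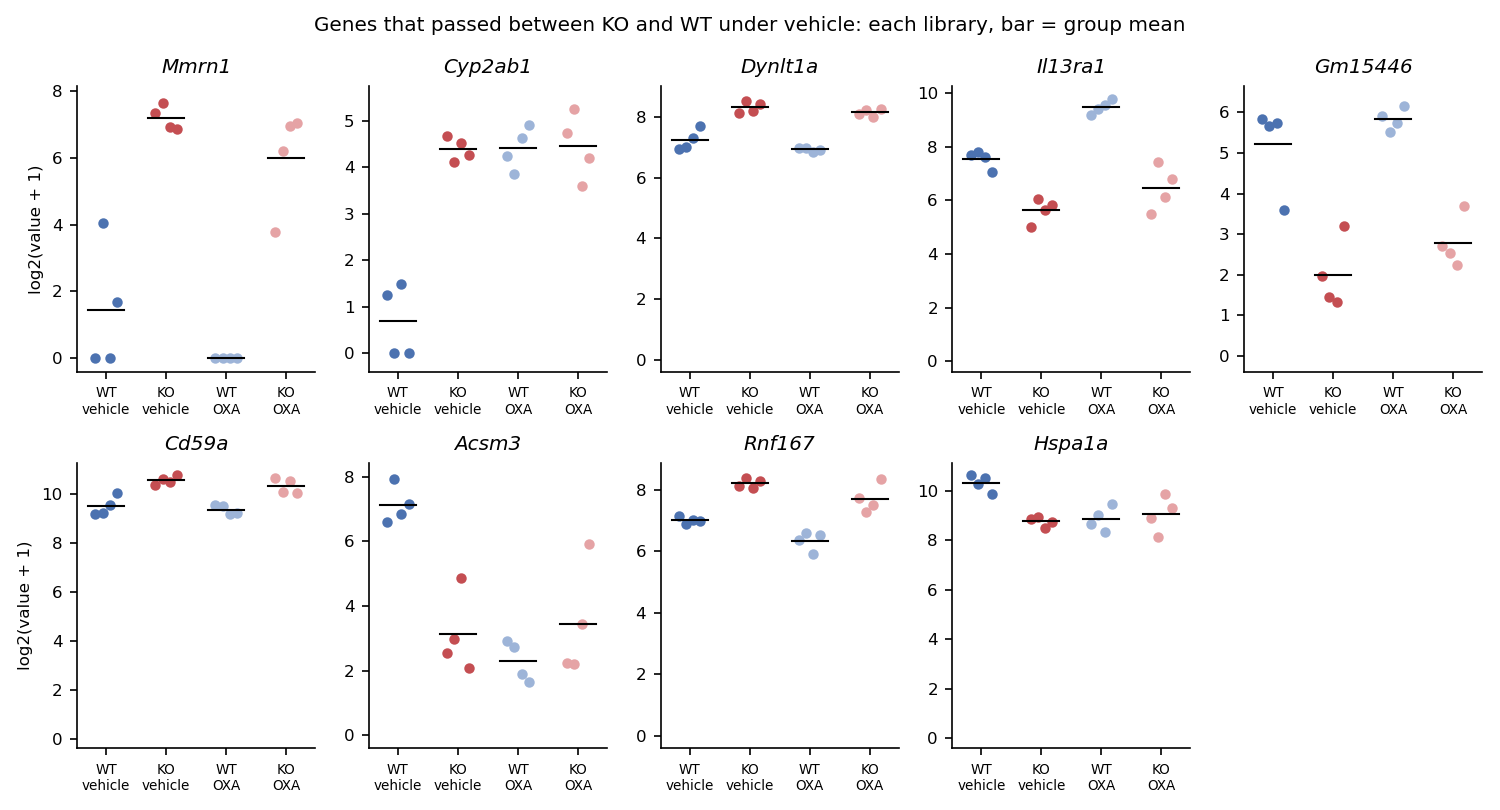
Level of 9 genes that passed under vehicle, as log2(value + 1), in every library of the 4 groups (points), with the group mean (bar). Mmrn1 is at 0 in all 4 WT OXA libraries, and in Cyp2ab1, Acsm3 and Hspa1a the WT group differs from KO under vehicle but overlaps it under OXA.

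Cyp2ab1, a cytochrome P450 gene, was at 1.38, 0, 1.82 and 0 in WT vehicle and at 24.4, 16.4, 22.1 and 18.05 in KO vehicle. The WT libraries held 2 reads in all and the KO libraries 84 (log2 fold change 3.70 ± 0.51, limma adjusted p = 0.00284). Under OXA the groups overlapped, at 17.8, 13.3, 23.5 and 29.2 in WT and 25.7, 36.9, 11.1 and 17.3 in KO, so that WT vehicle was the 1 group near 0 (OXA fold change minus vehicle fold change -3.66, adjusted p = 0.0017). Cyp2ab1 met the rule of 5 in 4 libraries through its KO libraries alone, so that it had to differ in order to be counted.

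Acsm3, a mitochondrial medium-chain acyl-CoA synthetase, was at 95.0, 244, 115 and 140.4 in WT vehicle and 4.87, 6.90, 28.15 and 3.28 in KO vehicle (log2 fold change -4.01 ± 0.72, limma adjusted p = 0.0416). KO vehicle 3 was the highest of its group but lay well under every WT library. Under OXA it was low in both genotypes, at 6.53, 5.64, 2.75 and 2.16 in WT and 3.67, 3.57, 9.90 and 59.1 in KO. The effect of genotype differed between treatments by 5.15 (adjusted p = 0.0018).

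Hspa1a encodes the inducible chaperone Hsp70, which cells make after heat or other stress. It was at 1590.3, 1247, 1469 and 923 in WT vehicle and 461, 494, 359.9 and 423 in KO vehicle (log2 fold change -1.57 ± 0.29, limma adjusted p = 0.0497). All KO libraries were under all WT libraries. Its neighbour and near-identical copy Hspa1b was at 3448, 2856, 3468 and 2494 in WT and 1658, 1634, 1441 and 1576 in KO, again without overlap, but did not pass (-0.95 ± 0.25, limma adjusted p = 0.289; it passed in the fit to the 8 vehicle libraries, 0.0296). Reads of these copies may be split between them, so that the division of the signal between Hspa1a and Hspa1b is uncertain. Dnajb1, the co-chaperone of Hsp70, was at 2334 ± 177 in WT and 1345 ± 210 in KO (SD, n = 4; -0.80 ± 0.19, adjusted p = 0.239). For all 3 genes the difference between treatments passed (1.75, 1.21 and 1.48 for Hspa1a, Hspa1b and Dnajb1). Under OXA the groups overlapped for Hspa1a, at 397, 520, 322 and 702 in WT and 469, 277, 943 and 633 in KO. They also overlapped for Hspa1b, at 1870, 2323, 1843 and 3382 in WT and 2356, 1519, 4253 and 3701 in KO. The fold changes under OXA were 0.18, 0.26 and 0.67 for Hspa1a, Hspa1b and Dnajb1. DESeq2 called Hspa1a and Dnajb1 under vehicle, and edgeR called none of the 3.

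Most other heat shock genes lay near 0. Of 16 measured genes of the list, 1 passed (Hspa1a), 3 were lower at an unadjusted p under 0.05 (4.01% of all 15289), 6 were higher, and the median was -0.05 (0.05 with quantile normalization). The abundant constitutive chaperone genes Hspa8, Hsp90ab1 and Hspd1 were at -0.07, -0.15 and 0.01. Lower in KO without overlap were 4 genes (2.86% of all 15289): Hspa1a, Hspa1b, Dnajb1 and Hspe1. Hspe1 was at 7246 in WT and 5369 in KO (-0.43 ± 0.21, limma adjusted p = 0.544). The mean level of the list did not overlap either, at 11.14 to 11.49 in WT and 11.02 to 11.07 in KO (log2(value + 1)). The promoters of the stress-inducible copies are shown because they carry the chaperone result: each of the sequences is the 130 bases before the gene's start, on its coding strand (RefSeq, GRCm38.p6). Capitals mark the letters GAANNTTC, the core of the element bound by heat shock factor, searched on both strands.
Hspa1a, chr17:34972157-34972286, minus strand: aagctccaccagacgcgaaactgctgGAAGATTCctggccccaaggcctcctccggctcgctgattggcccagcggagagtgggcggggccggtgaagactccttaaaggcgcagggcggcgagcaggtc
Hspa1b, chr17:34959239-34959368, minus strand: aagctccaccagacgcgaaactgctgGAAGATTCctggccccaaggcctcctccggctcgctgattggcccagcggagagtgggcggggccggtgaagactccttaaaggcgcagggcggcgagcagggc
These promoters differ at 1 of 130 bases, and in both the match begins 104 bases before the start. The same letters occur within 250 bases before the start in 6.69% of 32851 promoters, in 6.28% of those of the 11423 measured genes with an entry, and in those of 6 of 12 heat shock genes with an entry (Dnaja1, Hspa1a, Hspa1b, Hspb1, Hspd1 and Hspe1). A match describes the letters only.

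Just outside the threshold stood Ccl8, a chemokine for monocytes and a gene raised by IL-4 and IL-13. It was at 199.7, 69.5, 126 and 55.7 in WT vehicle and 20.5, 29.3, 25.9 and 29.5 in KO vehicle, with no overlap (log2 fold change -1.89 ± 0.37, limma adjusted p = 0.0763). The effect of genotype on Ccl8 differed between treatments by 2.60 (adjusted p = 0.002), since its fold change under OXA was 0.71. Ccl8 passed under DESeq2 (adjusted p = 0.00014), with reads thinned to the shallowest library (0.0237), with array weights (0.00261), after quantile scaling (0.038), and when either WT vehicle 4 (0.0197) or KO OXA 4 (0.0207) was left out.

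Other genes near the threshold had non-overlapping groups without passing in limma. Srp54a, a subunit of the signal recognition particle, was higher by 1.08 ± 0.21 (log2; adjusted p = 0.0854), and its copy Srp54c, with which it may share reads, 0.50 ± 0.47. Slc1a3, a glutamate transporter of glia, was at 92.25, 162, 119 and 152 in WT and 51.7, 44.9, 62.4 and 54.2 in KO (-1.26 ± 0.26, adjusted p = 0.134). Bbox1, the last enzyme of carnitine synthesis, was at 6.88, 47.9, 18.2 and 8.91 in WT and at or under 2.59 in KO (-3.34 ± 0.74, adjusted p = 0.186). Marcksl1, an actin-binding protein, had -0.79 ± 0.18 (adjusted p = 0.186). On the higher side, Npas4, a neuronal activity factor, was at 0 in 3 WT libraries and at 19.0 to 27.9 in KO (4.00 ± 0.84, adjusted p = 0.134). Tespa1 (2.87 ± 0.61) and the olfactory receptor gene Olfr780 (2.50 ± 0.53) were also low in WT and higher in KO. DESeq2 called each of these except Npas4, and edgeR none of them. In limma, Slc1a3 and Npas4 passed without KO OXA 2 (adjusted p = 0.0416 and 0.0314), Olfr780 passed without WT vehicle 2 (0.039) and Bbox1 with quantile normalization (0.0387). Npas4 and Tespa1 were under 5 in every WT library and Bbox1 in every KO library, so that each met the rule of 5 through 1 group alone and had to differ in order to be counted.

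**Figure D3:**
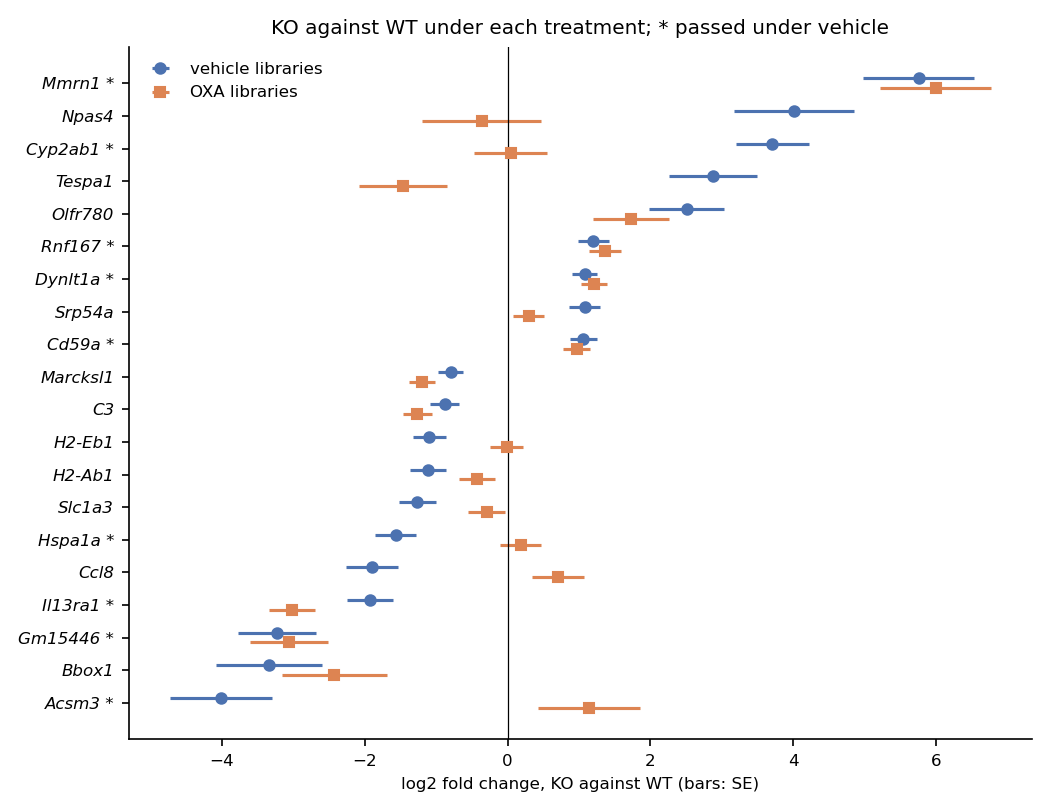
Log2 fold change of KO against WT (± SE) under vehicle (blue circles) and under OXA (orange squares), from libraries that do not overlap, for 9 genes that passed under vehicle (*) and 11 near the threshold. Mmrn1, Rnf167, Dynlt1a and Cd59a have similar values under both, while Cyp2ab1, Acsm3, Hspa1a and Ccl8 do not.

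Genes of antigen presentation by MHC molecules were lower in KO as a group, though none passed in limma; edgeR also called 0 and DESeq2 called 3 (H2-Eb1, H2-Ab1 and Cd74). MHC class II molecules show peptides to helper T cells and are carried by dendritic cells, macrophages and B cells. All 17 measured genes of the list had a fold change below 0 (48.7% of the 15289 genes did), 12 at an unadjusted p under 0.05, against 4.01% of all, and 6 had groups that did not overlap, against 2.86%. The list median was -0.88, and it was -0.27 under OXA. Without WT vehicle 1, the library with the highest level of the list, the median was -0.62 and 7 genes had an unadjusted p under 0.05. Since these are bulk samples, fewer cells of a type and less RNA per cell cannot be told apart here or below.

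The class II genes H2-Eb1, H2-Ab1 and H2-Aa and the invariant chain Cd74 had the smallest p in the list. H2-Eb1, a beta chain, was at 4808, 2746, 4532 and 3818 in WT and 1932, 1943, 1976 and 1466 in KO (log2 fold change -1.10 ± 0.23, limma adjusted p = 0.134), and the difference between treatments passed (1.08, adjusted p = 0.0267). It passed under vehicle without WT vehicle 2 (0.0497), KO OXA 1 (0.0369) or KO OXA 3 (0.0479) and with array weights (0.0319). H2-Ab1, another beta chain, was at 2561, 1380.0, 2764 and 2926 in WT and 826, 1237, 1269 and 1016 in KO (-1.11 ± 0.25, adjusted p = 0.206; 0.039 without WT vehicle 2). H2-Aa, the alpha chain, was at 6095 ± 1894 in WT and 2703 ± 708 in KO (SD, n = 4; -1.16 ± 0.34). The invariant chain Cd74 was at 658, 269, 580.1 and 686 in WT and 251, 296, 313 and 208 in KO (-0.96 ± 0.24, adjusted p = 0.269), where only WT vehicle 2 lay within the KO range. The class II genes H2-DMa, H2-DMb1 and H2-Ob had unadjusted p of 0.103, 0.114 and 0.497, with fold changes of -0.45, -0.48 and -0.80. For H2-Ob the mean value was higher in KO but widely spread (17.2 ± 15.3 in WT, 50.8 ± 97.9 in KO, SD, n = 4), and the groups overlapped.

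Class I genes were lower too: H2-K1 had a log2 fold change of -0.91 ± 0.30, the light chain B2m -0.79 ± 0.33 and H2-D1 -0.42 ± 0.20. Their limma adjusted p were 0.412, 0.506 and 0.535. The WT levels were 4696 ± 2226, 3954 ± 1814 and 4763 ± 1100 (SD, n = 4), and the groups overlapped for B2m and H2-D1. H2 genes are near-identical copies in part, so reads may be split among them. The class II promoters are shown because H2-Eb1 and H2-Aa share a known element: each is the 130 bases before the start, on the coding strand (RefSeq, GRCm38.p6), with the letters CTGATTGG, the Y box bound by NF-Y, in capitals.
H2-Eb1, chr17:34305737-34305866, plus strand: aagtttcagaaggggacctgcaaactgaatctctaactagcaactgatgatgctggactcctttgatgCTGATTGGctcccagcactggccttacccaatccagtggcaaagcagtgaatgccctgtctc
H2-Aa, chr17:34287824-34287953, minus strand: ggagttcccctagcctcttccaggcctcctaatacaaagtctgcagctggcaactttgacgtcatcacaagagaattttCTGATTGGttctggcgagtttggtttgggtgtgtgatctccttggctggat
The match begins 62 bases before the start in H2-Eb1 and 51 in H2-Aa. Searched on both strands within 250 bases before the start, these letters occur in 3.83% of 32851 promoters, in 5.94% of those of the 11423 measured genes with an entry, and in those of 6 of 14 antigen presentation genes with an entry (H2-Aa, H2-D1, H2-Eb1, H2-Q6, H2-Q7 and H2-T23). They also occur in the promoters of Hspa1a, Hspa1b and Hspa5.

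Genes induced by interferon showed a lower median that leaned on 1 WT library. Of 33 measured genes 30 were below 0, 12 had an unadjusted p under 0.05 with a lower value (4.01% of all genes did) and none with a higher one, 6 were lower in KO without overlap (2.86% of all), and the median was -0.71. Psmb8 and Psmb9, subunits of the immunoproteasome that cuts peptides for class I molecules, were lower in KO without overlap: Psmb8 was at 158, 100.4, 104 and 131 in WT and 38.01, 81.1, 49.5 and 47.6 in KO (log2 fold change -1.21 ± 0.30, limma adjusted p = 0.269), and Psmb9 had -1.20 ± 0.36. Cxcl9, a chemokine for activated T cells, was at 60.6 in WT vehicle 1, at 17.8 to 23.7 in the other WT libraries and at 5.33 to 10.4 in KO (-1.72 ± 0.46, adjusted p = 0.289). The mean level of the list was 7.69 in WT vehicle 1 and 5.80 to 6.51 in the other WT libraries, against 5.61 to 6.01 in KO (log2(value + 1)). Without WT vehicle 1 the list median was -0.28 and 4 genes were lower at an unadjusted p under 0.05; without WT vehicle 4 the median was -1.02, with 21 such genes. With edgeR there were 20 and with array weights 23. None passed in limma or edgeR, and DESeq2 called Cxcl9.

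Complement genes had a median of -0.57. Of 16 measured genes 13 were below 0, and 10 had an unadjusted p under 0.05, all lower, against 4.01% of all genes. C3, the central component, was at 961, 1194.5, 1262.5 and 1339 in WT and 655, 690.4, 704 and 528.5 in KO, with no overlap (log2 fold change -0.88 ± 0.20, limma adjusted p = 0.206; 0.0489 without KO OXA 1 and 0.0225 in DESeq2), and passed under OXA (-1.26, adjusted p = 9.9e-05). C1qb, a chain of the first component made by macrophages, was at 1335 ± 325 in WT and 843 ± 188 in KO (SD, n = 4; -0.66 ± 0.24), while its fold change under OXA was 0.79 and the difference between treatments passed (1.45, adjusted p = 0.0064). The count of 10 was 2 without KO vehicle 4, and 6 without WT vehicle 1 or without WT vehicle 3, with medians of -0.45, -0.50 and -0.55.

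Markers of macrophages and dendritic cells were lower too, in a list that is not separate from the complement list: C1qa, C1qb and C1qc stand in both. Of 23 measured genes 20 were below 0, none passed in limma, edgeR or DESeq2, 8 were lower at an unadjusted p under 0.05 (4.01% of all genes), and the median was -0.36. Csf1r, the receptor for the macrophage growth factor CSF1, was at 416, 491, 536 and 446 in WT and 304, 309, 393 and 141 in KO (log2 fold change -0.80 ± 0.25, limma adjusted p = 0.391). The summed value of 5 defining markers (Adgre1, Csf1r, C1qa, C1qb and Cd68) was 1808 to 2554 in WT and 903 to 1565 in KO, and none of them was at 0. Of these, C1qb, which stands in both lists, had a mean of 1335 in WT and 843 in KO. B cells carry class II molecules too. All 8 measured B and plasma cell markers had a fold change above 0, with a median of 0.99, and none passed. Their mean level was 7.68 in KO vehicle 2 and 3.10 to 3.96 in the other KO libraries, against 3.10 to 4.12 in WT. The part of macrophages or B cells in the values of the antigen presentation and complement genes was not tested. The count of 8 macrophage markers was 4 without KO vehicle 3 or without KO vehicle 4, and 5 without WT vehicle 1.

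**Figure D4:**
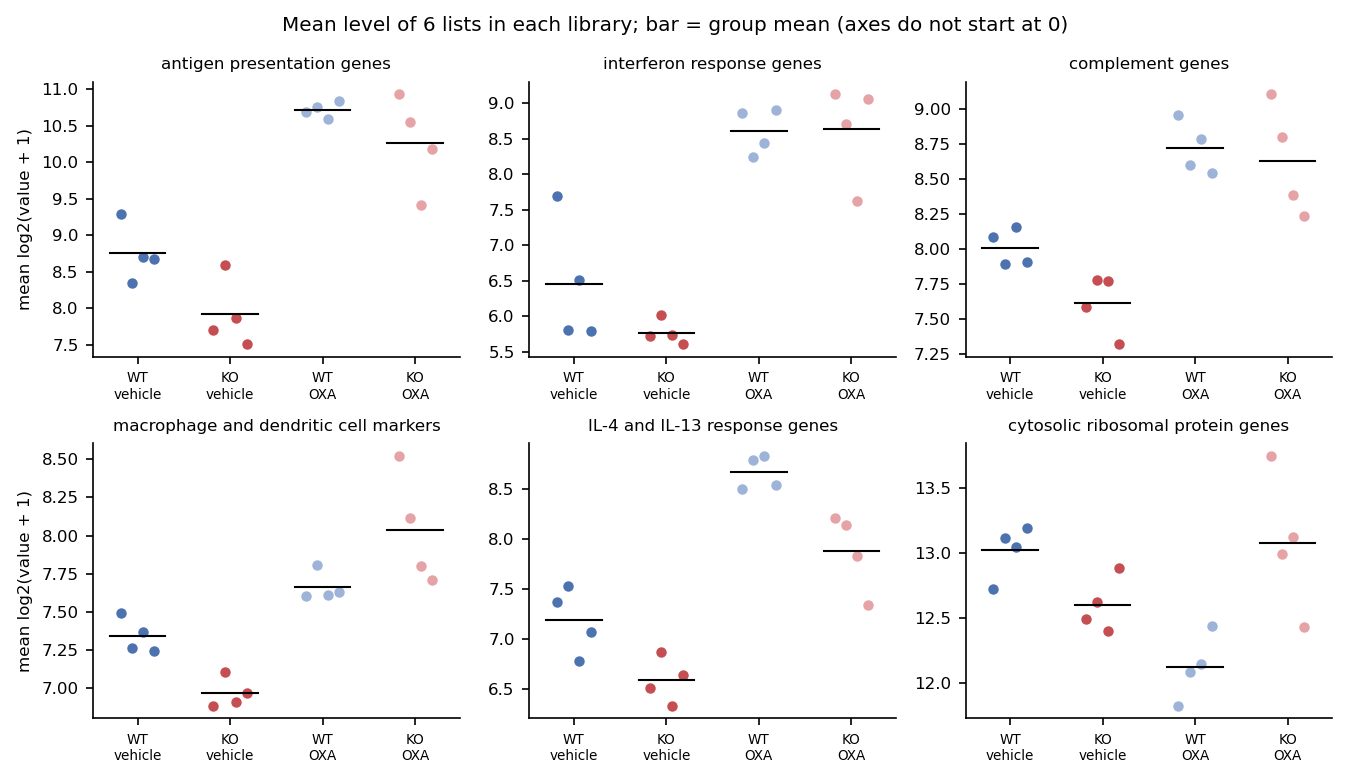
Mean log2(value + 1) of 6 gene lists in each library (points), with the group mean (bar), for the 4 groups; the vertical axes do not start at 0. Under vehicle the complement and macrophage lists, which share C1qa, C1qb and C1qc, do not overlap between genotypes. The interferon list is high in WT vehicle 1.

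Genes raised by IL-4 and IL-13 were mostly lower in KO. None passed in limma or edgeR, and DESeq2 called Ccl8. Of 19 measured genes 16 were below 0, 6 were lower at an unadjusted p under 0.05 (4.01% of all genes), and the median was -0.48. Beside Ccl8, these were Mgl2, Cd200r1, Ccl22, Ccl11 and Retnla. Retnla, a secreted protein of alternatively activated macrophages, was at 2721, 2409, 2369.8 and 2848 in WT and 1659.9, 1930.5, 1518 and 1906 in KO, with no overlap (log2 fold change -0.56 ± 0.25, limma adjusted p = 0.524). Ccl11, the eotaxin that draws eosinophils, was at 284, 363, 299 and 319 in WT and 221, 253, 173 and 266 in KO (-0.48 ± 0.20, adjusted p = 0.511). Mgl2, a macrophage lectin, was at 201, 144, 208 and 205 in WT and 122, 134, 116 and 100.1 in KO (-0.67 ± 0.25, adjusted p = 0.444).

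Other genes of this list that IL-13 is known to raise varied between libraries or differed little. Chil4, a chitinase-like protein, was at 2969, 1187, 209.8 and 1221 in WT and 616, 481, 158 and 489 in KO, so that the groups overlapped (-1.32 ± 0.72, adjusted p = 0.584). Alox15, a lipoxygenase, ranged from 0 to 58.7 in WT and 0.76 to 43.15 in KO (-0.82, adjusted p = 0.831). Arg1 was at 1924 ± 604 in WT and 1941 ± 197 in KO (0.06 ± 0.24). The list median was -0.25 without KO vehicle 3, -0.31 without WT vehicle 2 and -0.23 with reads thinned to the shallowest library, and 3 genes were lower at an unadjusted p under 0.05 without KO vehicle 1.

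No gene of the squamous epithelium lists below passed in limma. Of 45 suprabasal differentiation genes measured, 29 were above 0 and 16 below, 2 were higher at an unadjusted p under 0.05 (5.07% of all genes were), and the median was 0.10 (0.01 without WT vehicle 3 or without WT vehicle 4). The count of 2 was 6 with quantile normalization and 6 in the fit to the 8 vehicle libraries. Krt13, the partner of Krt4, was at 333040 ± 69580 in WT and 279970 ± 37051 in KO (-0.24 ± 0.42), and Lor, a cornified envelope protein, at 91010 ± 15400 in WT and 100090 ± 11322 in KO (0.15 ± 0.26). Flg, the barrier protein filaggrin, was at 219.6 ± 114 in WT and 234 ± 116 in KO (0.04 ± 0.47). Of 15 basal markers 10 were below 0, with a median of -0.09. The basal keratin Krt14 was at 2769, 2551, 3016 and 3766 in WT and 2481, 2172, 2011 and 2240.4 in KO, with no overlap (-0.43 ± 0.20, limma adjusted p = 0.54), and its partner Krt5 was at 20139 ± 6275 in WT and 17220 ± 1382 in KO (-0.17 ± 0.22).

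Genes of cytosolic ribosomal proteins had small negative values throughout. All 34 measured were below 0, from -0.61 to -0.11 with a median of -0.43, 8 had groups that did not overlap (2.86% of all genes were lower without overlap) and 6 had an unadjusted p under 0.05 (4.01% of all were lower). Rps15 had the smallest p: it was at 8765, 11882, 10346 and 11976 in WT and 6793, 6597, 6776.5 and 7870.1 in KO (-0.61 ± 0.19, limma adjusted p = 0.391). Under OXA the list median was 1.01, and for Rps15 the difference between treatments passed (1.66, adjusted p = 0.00033). The count of 6 ran from 2 (without WT vehicle 3 or 4, or KO vehicle 2 or 3) to 25 (without KO OXA 1), and it was 14 without WT vehicle 1, 17 without KO vehicle 4, 19 without KO OXA 4 and 28 in a fit to the 8 vehicle libraries. The 13 mitochondrially encoded genes had a median of 0.36, with 11 above 0, beside the higher share of mitochondrial mRNA in KO. Of these, 3 were higher without overlap (2.55% of all genes) and none had an unadjusted p under 0.05, a count that was 4 in the fit to the 8 vehicle libraries, 3 in a robust fit and in DESeq2, and 2 without a trend. The part of RNA composition in the ribosomal values was not tested.

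Of the fibroblast and matrix genes 35 of 39 measured were below 0 (median -0.32), with 10 lower and 1 higher at an unadjusted p under 0.05 (4.01% and 5.07% of all genes), and the 10 became 1 without KO vehicle 4, 4 without WT vehicle 3 or 4 and 16 without WT vehicle 2. Col14a1, a collagen of fibril surfaces, had -0.71 ± 0.25 (limma adjusted p = 0.441). The exception, the matrix glycoprotein Tnc, had 0.91 ± 0.31 (adjusted p = 0.435). Among 24 immediate early and stress genes 17 were below 0 (48.7% of all genes) and 4 were lower at an unadjusted p under 0.05 (4.01% of all), each without overlap (2.86% of all): Btg2 (-0.63 ± 0.17), Myc (-0.73 ± 0.21), Dusp6 (-0.64 ± 0.19) and Fosl2 (-0.49 ± 0.14), with a list median of -0.12. That count at an unadjusted p under 0.05 was 8 without WT vehicle 1, 8 in DESeq2 and 7 in edgeR. In 26 other lists of cell types and pathways no gene passed. These lists held 1 to 41 measured genes. At an unadjusted p under 0.05, at most 2 genes of a list were higher and at most 3 lower (5.07% and 4.01% of all genes). The 3 lower were Cxcl16, Ccl12 and Csf1, of 12 measured inflammatory chemokines and cytokines. In that list 5 genes were above 0 and 7 below, the median was -0.02, and Cxcl16 was lower without overlap (2.86% of all). The T cell and innate lymphoid list (19 measured) had 2 higher at that threshold, Cd4 and Trdc, and 2 lower, Nkg7 and Il2ra. Of the eosinophil transcripts, Epx was at 0 in all 8 vehicle libraries, and the summed value of 4 defining markers was at most 2.23, against 4.31 to 11.9 in WT OXA. Ear6, a ribonuclease gene of the eosinophil list, was at 17.1 ± 8.32 in WT vehicle and 7.65 ± 0.847 in KO vehicle (SD, n = 4; limma adjusted p = 0.585).

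**Figure D5:**
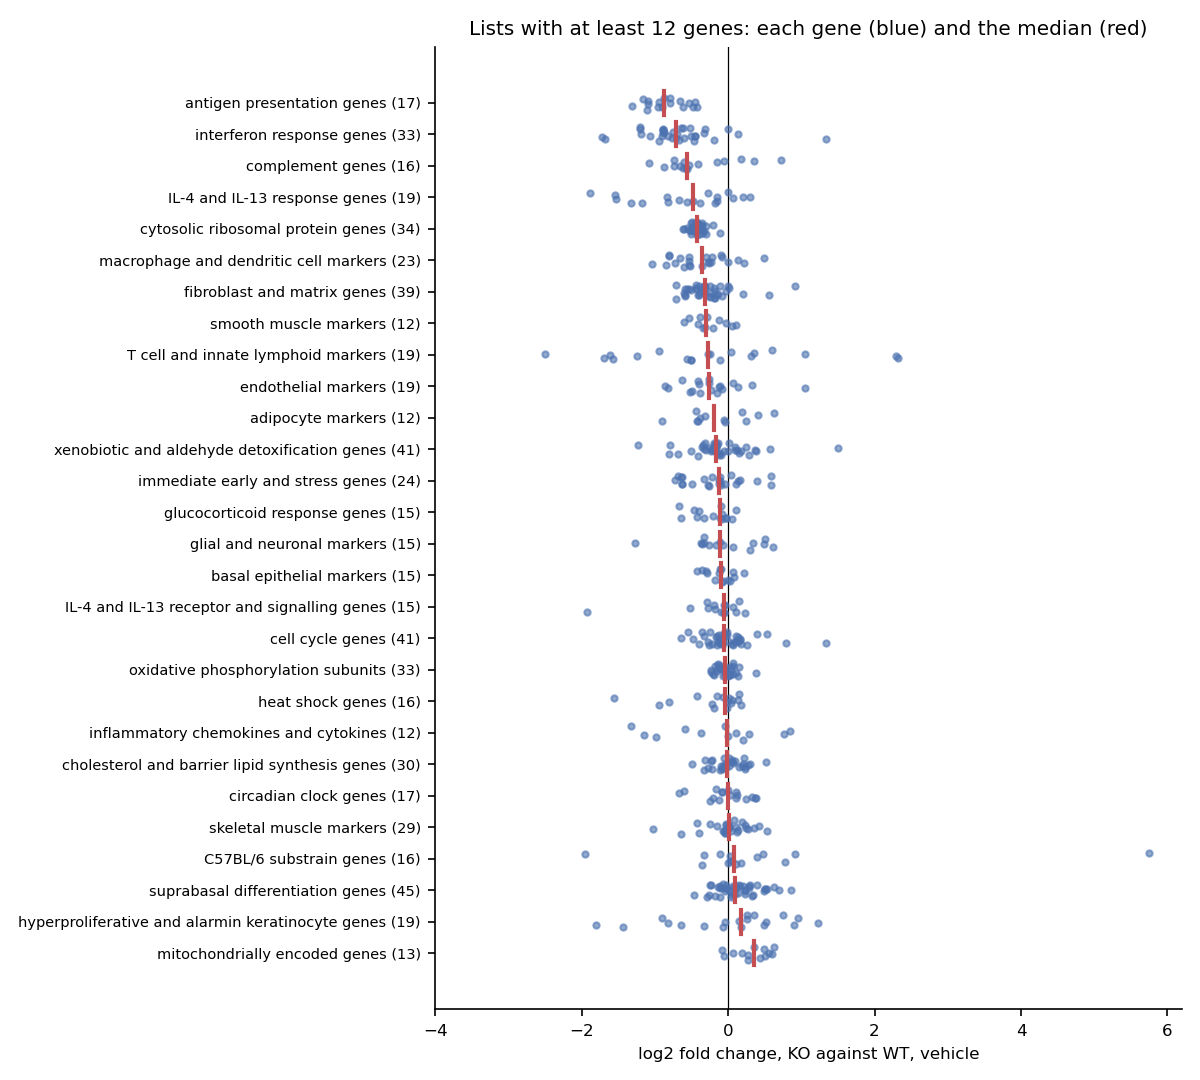
Log2 fold change of KO against WT under vehicle for the reported genes (blue) of the lists with at least 12 measured genes (number in parentheses), and the list median (red). Antigen presentation genes are all below 0, suprabasal genes lie on both sides, and Mmrn1 stands out to the right among the substrain genes.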

How the data were processed

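Per the submitters' processing notes, the authors used GRCm38 and these tools: HTSeq 0.6.1, TopHat2 2.1.0 with Bowtie2 2.2.6, Trim Galore with cutadapt 1.10, and DESeq2 1.28.0. Neither the annotation release, nor the strand setting, nor the use of molecular identifiers is given in the sources used here. Values in the deposited table are a signal: read counts divided by 1 size factor per library. With a tolerance of 0.1 read, 100% of the values checked in every library came out as whole reads. The highest values of each library were left out of that check.

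Log2(value + 1) was fitted with limma 3.58.1 in R 4.3.3, with 4 group means over all 16 libraries and eBayes with a trend. Tests were two-sided, with Benjamini-Hochberg adjustment over 16748 genes at 5 or more in at least 4 of 16 libraries. Adjusted p-values are from limma unless another tool is named. The pseudocount of 1 makes the fold changes of low genes too small. edgeR 4.0.16 and DESeq2 1.42.0 were run on the recovered reads. In simulated data for the vehicle comparison (16311 genes), 50 of 100 genes changed 2-fold and 94 of 100 changed 4-fold were called, with 10 of 16111 unchanged genes. The changed genes were drawn only from measured genes above a minimum mean in WT vehicle, so these rates do not cover genes that are low there. Coordinates are those of the deposited table, which are the same in GENCODE M21 for 14713 of 15286 genes found there.

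The genes and the 40 lists were chosen with earlier results of these data known. The rule named fixed receptor, type 2 and keratin genes, up to 15 called genes in each direction whose groups did not overlap (filled to 10 by p), up to 3 genes a list by p, tested genes within 5 Mb of Il13ra1 with an unadjusted p under 0.05, and up to 12 genes called under both treatments. Other named list members were chosen after their values were seen. The alternatives were other scalings, pseudocounts, filters and fits, and each library left out in turn. Some genes that entered the fit and the counts are not reported here.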

Additional observations from a re-analysis of the deposited data

Results flagged for a closer look

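In 15 of 132 groups of 4 vehicle libraries, over 66 named genes, 1 library stood far from the other 3. Chance alone marks about 1 in 20 such groups when values are independent and normally distributed. These were normalized counts on their raw scale, and some genes shared a high library, so the count is not set against that rate. KO vehicle 2 was high for the plasma cell and B cell genes Jchain (986.4) and Iglc2 (290.0), and also for Cd200r1 (29.3) and Alox15 (43.15). WT vehicle 1 was high for the interferon-induced genes Cxcl9 (60.6) and Psmb9 (187). WT vehicle 2 was high for Mmrn1 (15.45) and for the cytochrome P450 gene Cyp2f2 (54185), and low for Mgl2 (144). WT vehicle 3 was high for Npas4 (3.65) and WT vehicle 4 low for Gm15446 (11.1). KO vehicle 1 was high for the stress keratin gene Krt6a (2428), KO vehicle 3 for Acsm3 (28.15) and KO vehicle 4 for Rps15 (7870.1), while KO vehicle 4 was low for H2-Eb1 (1466).

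For 31 of the 66 named genes the effect of genotype differed between treatments by limma's interaction test, given here as the log2 fold change of KO against WT under OXA minus that under vehicle. It did for 19.1% of the 15289 genes, and since the named genes were chosen in part by their values, nothing is read from their share. Among genes that passed or stood near the threshold under vehicle, the difference was 5.15 for Acsm3, 2.60 for Ccl8, 2.55 for Gbp2b, 1.75 for Hspa1a, 1.48 for Dnajb1, 1.21 for Hspa1b and 1.08 for H2-Eb1. It was -3.66 for Cyp2ab1, -4.37 for Npas4 and -4.34 for Tespa1.

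The macrophage genes C1qb and Mgl2 differed by 1.45 and 1.47, and the plasma cell gene Jchain in the other direction, by -4.56. Cbr2, which stands in both the macrophage list and the list of detoxification enzymes, differed by 3.16. The ribosomal genes Rps15 and Rpl14 differed by 1.66 and 0.89, and Pgrmc1 by 0.92. In the epithelium the differences were 7.80 for Flg, 2.14 for Lor, 2.89 for the cornified layer gene Rptn, 5.27 for Cyp2f2, 1.80 for the hemidesmosome gene Col17a1, -1.41 for Krt14, -4.36 for Krt6a, -1.88 for Sprr1a and -2.25 for Sprr1b. The secretory gene Scgb1a1 differed by 2.37. Among genes of the IL-4 and IL-13 pathway the differences were -5.95 for Chil4, -6.36 for Alox15, -1.93 for Il4ra and 0.88 for Stat6.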

How the results depend on the processing

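The count of 10 genes under vehicle (6 higher and 4 lower) was 5 with equal library totals (4 and 1), 4 without a filter on low values (4 and 0), 6 in a fit to the 8 vehicle libraries (2 and 4), 3 without a trend (3 and 0) and 41 with DESeq2 (18 and 23), and it ran from 3 to 12 with single libraries left out. DESeq2 called all 10. Under the other 9 settings the count was 7 to 12. The log2 fold change of Il13ra1 stayed below 0 throughout: it was -1.90 with equal library totals (limma adjusted p = 0.0689), -1.93 without a filter (0.0877), -1.93 without a trend (0.128), and from -2.09 to -1.72 with single libraries left out (0.00512 to 0.122). Without a filter more genes were tested and in the fit to 8 libraries fewer samples entered; for the others the cause was not tested. Scaling to equal totals put the OXA median of all genes at -0.43 (log2; -0.03 otherwise), and the calls there split into 1256 higher and 4945 lower against 2433 and 2088. No called result changed direction. No paired analysis was possible because the codes that name libraries differ between groups. The WT vehicle group had the lowest mean depth, which limits what could be seen of genes with few reads.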
